A study of Mus musculus with 3 samples.

Results

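The genes described here encode proteins of focal adhesions and proteins that bind actin. They were chosen by name, with earlier results of these data known. Of 37 gene symbols looked up among the non-control probes of the array, 36 were found, with 78 probes. In all there were 41174 such probes, and 19754 genes could be named. The name Ezr was not found, since the array lists ezrin under its older symbol Vil2; that probe is given separately and enters no count. Kindlin-2, now Fermt2, is listed as Plekhc1. The study compared cultured aortic endothelial cells of mice without the serine/threonine kinase Pim1 (FVB/N Pim1 knockout) with those of FVB/N wildtype mice. According to the labels the mice of both genotypes were female and aged 12 weeks. Cells on gelatine-coated dishes gave their RNA 24 hours after seeding. It was hybridised to 3 two-colour arrays, labelled as biological replicates, each with knockout RNA in Cy5 and wild-type RNA in Cy3. All ratios below are knockout over wild type on the log2 scale, where -1 is a 2-fold lower intensity in the knockout.

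Focal adhesions are the sites where integrins, which hold the extracellular matrix outside the cell, are tied to actin filaments inside it. Talin binds the integrin tail and opens under tension so that vinculin can bind it and strengthen the link to actin, while kindlins and the complex of integrin-linked kinase, PINCH and parvin form a second link. Focal adhesion kinase and Src signal from these sites, and crosslinkers, elongation factors and severing proteins shape the filaments. In endothelial cells this machinery holds the vessel lining to its basement membrane and carries the response to flow.

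Facts about the arrays bear on all values. The share of probes above background was 53.8% to 57.2% for knockout RNA and 58.4% to 62.5% for wild-type RNA. Across all tested probes, which are not independent replicates, arrays 2 and 3 correlated at r = 0.905, and array 1 correlated with them at 0.68 and 0.698. The dyes were not swapped, so dye and genotype cannot be told apart. The labels call the arrays biological replicates without saying whether cultures or animals differed, so a p-value covers no more than the scatter among 3 arrays, and their small number sets the precision. The targeted gene Pim1 read -0.97, -1.16 and -0.99 on the 3 arrays (limma adjusted p = 0.00294), but where its deletion lies relative to the probe is not given in the sources used here, so this checks the labels only in part. Xist, the RNA of the inactive X chromosome, read 168-fold lower in the knockout channel. The Y-linked Eif2s3y and Ddx3y were at least 28.1-fold and 12.1-fold higher there. Both were well above background with knockout RNA on 3 arrays and with wild-type RNA on 0, while for Xist it was the reverse. These values go against the label female for the knockout RNA but not for the wild-type RNA. Sex and genotype therefore cannot be told apart, which touches the X-linked members Flna and Msn first.

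The defining endothelial markers Pecam1, Cdh5, Tie1 and Erg were well above background on no array in either channel. Of 7 endothelial markers tested, 2 were called higher and 1 lower, and the summed log2 level of the list ranged from 13.1 to 13.51 in the knockout and from 12.31 to 12.48 in the wild-type channel. Markers of other cell types differed between the channels. Of 10 mesothelial and epithelial markers, 7 were called lower, and their summed log2 level ranged from 13.46 to 13.8 in the knockout and from 16.3 to 16.62 in the wild type. Of 11 fibroblast markers, 7 were higher and 1 lower, with overlapping summed levels (17.64 to 17.81 and 17.43 to 17.68). Their median log2 ratio was 1.85, with 8 above 0 and 3 below. A summed level is set mostly by the brightest genes of a list. Of 10 smooth muscle and pericyte markers, 2 were higher and 3 lower (15.79 to 15.87 and 15.75 to 16.04), and of 5 macrophage and leukocyte markers, 2 were lower (11.29 to 11.48 and 11.9 to 12.32). Called markers with a log2 ratio of at least 2 in size were Eng, Col3a1, Dcn, Has2, Lum and Pdgfra among the higher and Krt19, Msln, Gpm6a and Cspg4 among the lower. The undetected markers in these 4 lists were Epcam, Fap, Rgs5, Adgre1, Fcgr1, Itgam and Tyrobp. The part of such cells in the values below was not tested, and in bulk RNA fewer cells of a type and less RNA per cell cannot be told apart.

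Talins rose while vinculin, tensins 1 and 3, beta-parvin, Nedd9, focal adhesion kinase, Src, alpha-actinin-4, cofilin-2 and gelsolin fell. Of the 36 genes, all of which were tested, 2 were called higher and 10 lower in the knockout (limma, Benjamini-Hochberg adjusted p under 0.05 over all tested probes). These are 33.3% of the members, against 20.1% of all 13496 genes tested, of which 8.66% were called higher and 11.4% lower. The list was proposed with results of these data known, so the comparison with all genes is descriptive and has no p. At least 2-fold changes were called for 5 members, all lower, where 6.68% of all genes were called at that size. The median log2 ratio of the members was -0.25, against -0.02 for all genes, and 23 of 36 were below 0, against 52.6% of all genes. On single arrays the median of the members was -0.21, -0.24 and -0.2. With median centring in place of loess, where 13.8% of all genes were called, 2 members were called higher and 5 lower, the members' median was -0.04 and that of all genes 0.08, so the size of the list's shift and 5 of its calls depended on the normalisation. The 5 that kept a lower call there were the 5 changed at least 2-fold, namely Parvb, Tns1, Nedd9, Vcl and Cfl2.

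**Figure D1:**
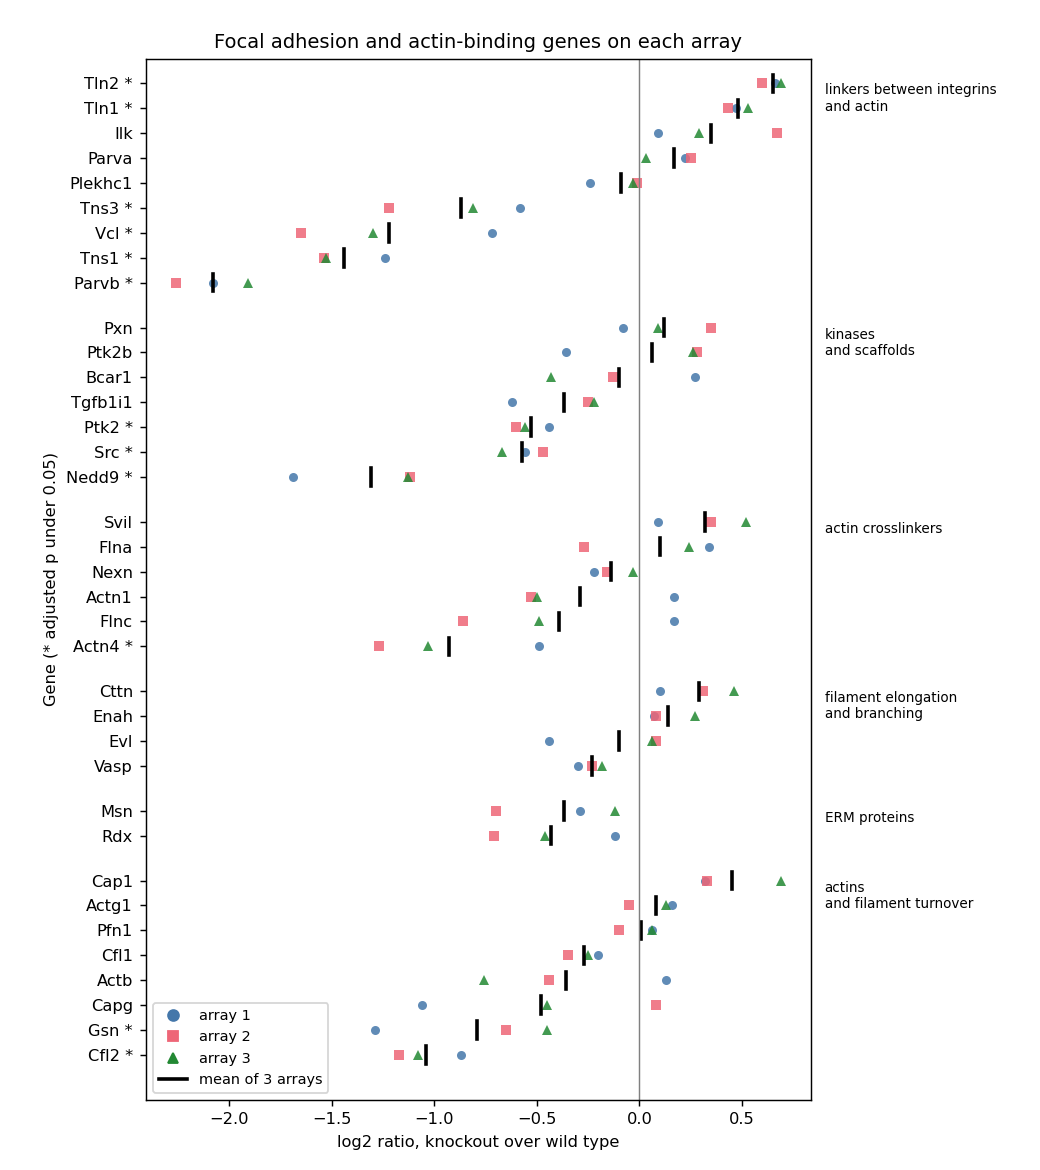
Log2 ratio (knockout over wild type, horizontal axis) of each of the 36 genes on each of the 3 arrays (symbols) with the mean (black bar), grouped by role; an asterisk marks an adjusted p under 0.05. Tln1 and Tln2 lie right of 0 on every array, and Parvb, at -2.08 on average, lies furthest left.

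The linkers between integrins and actin held the largest share of calls, 6 of 9 (66.7%, against 20.1% of all genes). The 60-base array probes behind the largest changes are shown here by their first 30 bases, as the array files give them, with the position of the whole probe in mm8; they identify what was measured for the 5 members that fell at least 2-fold and for the 2 that rose.
Parvb, chr15:84142389-84142448, plus strand: tgggatgcggtgacattaaagagccacact
Tns1, chr1:73843481-73843540, minus strand: gatatgaatgtatgtacactgatgctgccc
Nedd9, chr13:41321427-41321486, minus strand: ttcctttatgaccaactcaagaaatatagt
Vcl, chr14:19821435-19821494, plus strand: ggcaatcttgtctgggagactagcatttgc
Cfl2, chr12:55777525-55777584, minus strand: agtggttaaatgtctaggcttccatttaaa
Tln1, chr4:43552786-43552845, minus strand: ccccctccagagtattaacgctccaagagt
Tln2, chr9:67020084-67020143, minus strand: atcagtatcatggacatagagattctctct
Between the probes of related members, compared in 14 pairs over their full length, the longest shared run was 5 to 8 bases. The probes were not compared with the transcripts of the related genes, so this does not show that each measures its own gene only.

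Talin 1, which activates integrins and binds vinculin, read 0.47, 0.43 and 0.53 on the 3 arrays. It was thus higher in the knockout on every array, 1.39-fold (log2 ratio 0.48 ± 0.05, SD, n = 3 arrays, limma adjusted p = 0.0246). Its other 2 probes, at 0.6 and 0.53, were called as well. Talin 2, its paralog, read 0.66, 0.6 and 0.69, a 1.57-fold rise (0.65 ± 0.04, limma adjusted p = 0.0102), while another probe at 0.34 was not called (limma adjusted p = 0.164) and the remaining probe was above background on no array. The Tln1 call was lost without array 2 or array 3 (adjusted p = 0.156 and 0.185), with a normexp offset of 0 (0.0502) and with the scanner software's ratio (0.0782), and that of Tln2 without array 2 or array 3 (0.0921 and 0.11), at nearly the same ratios (0.45 to 0.67).

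Vinculin, which binds opened talin and couples it to actin, went the other way. Vcl read -0.72, -1.65 and -1.3 and was 2.33-fold lower (-1.22 ± 0.47, limma adjusted p = 0.0132), with array 1 nearest to 0. In the channels, its normalised log2 intensity was 12.25, 11.92 and 12.02 in the knockout and 12.97, 13.57 and 13.32 in the wild type, so the channels did not overlap. The second Vcl probe, at -0.83, was also called. The call was lost without array 2 or array 3 (adjusted p = 0.0768 and 0.109).

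Tensins link integrin tails to actin and are typical of long-lived, fibrillar adhesions. Tns1 read -1.24, -1.54 and -1.53, a 2.71-fold fall (-1.44 ± 0.17, limma adjusted p = 0.00151), and 3.64% of all genes changed as much. Of its 4 tested probes, 3 were called lower, and their mean was -0.82, still called. The call held without any 1 array. Tns3 read -0.58, -1.22 and -0.81, a 1.83-fold fall (-0.87 ± 0.33, limma adjusted p = 0.0171), but its other 2 tested probes read -0.14 and -0.23 and were not called. The latter was not well above background with knockout RNA on any array, and it read 1.17-fold lower (limma adjusted p = 0.15). Both of these probes were dim, and with the scanner software's ratio they read -0.41 and -1.84. The Tns3 call was lost without array 2 or array 3 (adjusted p = 0.0978 and 0.117) and with median centring (0.0997). Tns2, a tensin outside the chosen names, read -0.69, 0 and -0.27 and was not called (-0.32 ± 0.35, limma adjusted p = 0.216).

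Beta-parvin showed the largest change of all members. Parvins join integrin-linked kinase to actin, and 1 of the 2 parvins measured here was called. Parvb read -2.08, -2.26 and -1.91, a 4.24-fold fall (-2.08 ± 0.18, limma adjusted p = 0.000526), and knockout RNA gave a signal well above background on 2 of the 3 arrays. Its normalised log2 intensity was 6.28, 6.47 and 6.54 in the knockout and 8.36, 8.74 and 8.45 in the wild type. Its ratio moved with the background step, to -3.07 with a normexp offset of 0 and -4.03 with the scanner software's ratio. A second Parvb probe, not well above background with knockout RNA on any array, read -0.38 and was at least 1.29-fold lower (limma adjusted p = 0.0537), and the mean of the probes was -1.23, still called. With the scanner software's ratio this second probe read -2.71. Parva, the parvin of most tissues, read 0.22, 0.25 and 0.03 (0.17 ± 0.12, limma adjusted p = 0.311), with a second probe at -0.24 and a mean of the probes of -0.04, not called (limma adjusted p = 0.829). On the same array the ratio of Parva exceeded that of Parvb by 2.3, 2.52 and 1.94.

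Integrin-linked kinase itself, a pseudokinase that holds parvin and PINCH together, read 0.09, 0.67 and 0.29 and did not pass (0.35 ± 0.29, limma adjusted p = 0.144); without array 1 it did, at 0.48 (adjusted p = 0.00197). Kindlin-2, which activates integrins together with talin, had ratios of -0.24, -0.01 and -0.03 (-0.09 ± 0.13, limma adjusted p = 0.588), and its second probe read -0.07.

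**Figure D2:**
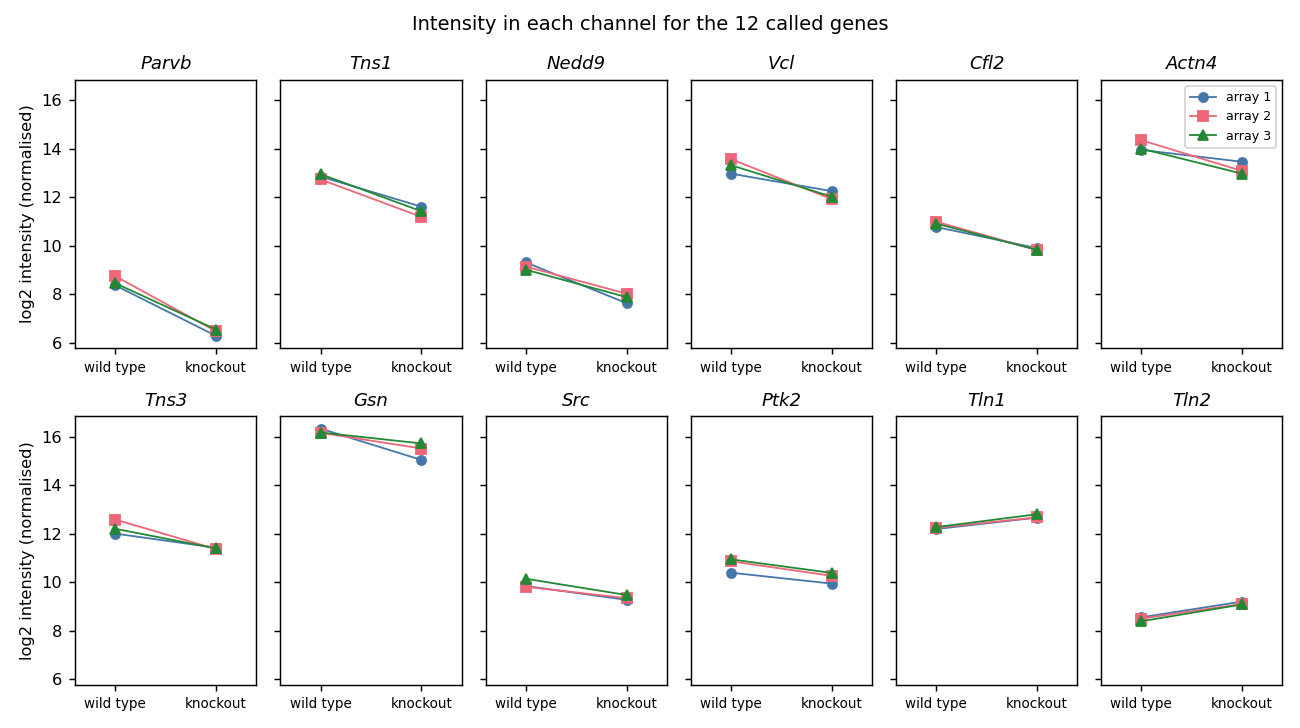
Normalised log2 intensity (vertical axis) of the 12 called genes in the wild-type and the knockout channel, with a line for each of the 3 arrays. For Parvb the 3 wild-type values lie between 8.36 and 8.74 and the knockout values between 6.28 and 6.54, and for Tln1 and Tln2 the lines rise.

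Promoter sequence was looked up because many adhesion and actin genes are classical targets of serum response factor, which binds the CArG box. RefSeq promoters (GRCm38.p6, 250 bases before to 50 after the gene start) were given for 27 of the 37 genes. A CArG box (CC, then 6 bases that are each A or T, then GG; the same on both strands) was found in 3 of these, 11.1%, against 1.81% of the 27025 genes with a promoter in the table. They were Vcl, Actg1 and Fermt2, shown with 100 bases each in the direction of the gene and the box in capitals.
Vcl, chr14:20929148-20929247, plus strand: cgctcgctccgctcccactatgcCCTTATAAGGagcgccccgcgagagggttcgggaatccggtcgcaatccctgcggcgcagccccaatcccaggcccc
Actg1, chr11:120348531-120348630, minus strand: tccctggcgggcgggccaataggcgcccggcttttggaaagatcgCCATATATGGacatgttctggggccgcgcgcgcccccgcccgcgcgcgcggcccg
Fermt2, chr14:45530215-45530314, minus strand: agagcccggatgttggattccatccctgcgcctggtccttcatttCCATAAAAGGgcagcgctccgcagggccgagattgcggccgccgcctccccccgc
The box begins 227 bases before the gene start in Vcl, 90 in Actg1 and 204 in Fermt2. Only Vcl of these 3 was called, so the genes that share the box did not share a ratio (-1.22, 0.08 and -0.09). The MCAT motif of TEAD factors, GGAATG on either strand, was found in 6 of the 27 promoters, 22.2%, against 16.6% of all genes: Vcl, Actn4, Evl, Flna, Flnc and Pfn1. A match is only a match of letters.

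Among kinases and scaffolds, 3 of 7 were called, all lower (42.9%, against 20.1% of all genes). Nedd9, also known as HEF1, a docking protein of the p130Cas family, read -1.69, -1.12 and -1.13, a 2.48-fold fall (-1.31 ± 0.32, limma adjusted p = 0.00484). Its second probe, at -0.81, was called too, and the call held without any 1 array. Its relative Bcar1, p130Cas itself, read 0.27, -0.13 and -0.43, with no common direction (-0.1 ± 0.35, limma adjusted p = 0.715). The difference in ratio of Bcar1 from Nedd9 was 1.21 ± 0.66 over the 3 arrays.

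Ptk2, focal adhesion kinase, read -0.44, -0.6 and -0.56, a 1.45-fold fall (-0.53 ± 0.08, limma adjusted p = 0.0194). Its other 2 probes read -0.2 and -0.13 and were not called, and with the mean of the probes, at -0.29, the gene was not called (adjusted p = 0.0905). Src, the tyrosine kinase that acts with it, read -0.56, -0.47 and -0.67, a 1.48-fold fall (-0.57 ± 0.1, limma adjusted p = 0.0173), with a second probe at -0.24. The calls of Ptk2 and Src were lost without array 2 (adjusted p = 0.157 and 0.111), without array 3 (0.155 and 0.152) and with median centring (0.176 and 0.094), and that of Ptk2 with the scanner software's ratio (0.0611). Pyk2, the calcium-sensitive relative of focal adhesion kinase, had ratios of -0.36, 0.28 and 0.26 (Ptk2b, 0.06 ± 0.36, limma adjusted p = 0.837), so array 1 stood on the other side of 0.

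The paxillin family did not pass. Paxillin, the adaptor that recruits kinases to young adhesions, read -0.08, 0.35 and 0.09 (Pxn, 0.12 ± 0.22, limma adjusted p = 0.544). Hic-5, its relative that also acts as a coactivator in the nucleus, read -0.62, -0.25 and -0.22 (Tgfb1i1, -0.37 ± 0.22, limma adjusted p = 0.0967), and its other 2 probes read -0.13 and -0.05. On each array the ratio of paxillin exceeded that of Hic-5, by 0.54, 0.6 and 0.32.

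Of 6 actin crosslinkers, 1 was called (16.7%, near the 20.1% of all genes). Actn4, the alpha-actinin of the cortex and of motile cells, read -0.49, -1.27 and -1.03, a 1.9-fold fall (-0.93 ± 0.4, limma adjusted p = 0.0201). The call was lost without array 2 or array 3 (adjusted p = 0.123 and 0.144) and with median centring (0.111). Actn1, the alpha-actinin of stress fibres, read 0.17, -0.53 and -0.5 (-0.29 ± 0.39, limma adjusted p = 0.297). Its ratio was higher than that of Actn4 on each array, by 0.64 ± 0.11.

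The filamins, large hinged crosslinkers, did not pass. Flna read 0.34, -0.27 and 0.24 (0.1 ± 0.33, limma adjusted p = 0.691), and its 3 tested probes lay between 0.1 and 0.26. The gene is X-linked, and its brightest probe was below 0 on array 2 only. Flnc, the muscle filamin, read 0.17, -0.86 and -0.49 (-0.39 ± 0.52, limma adjusted p = 0.252). Its 4 tested probes all lay between -0.39 and -0.16, and on each of the 4 array 1 was above 0 and the other arrays below. Nexilin, an actin-filament protein of muscle, read -0.22, -0.16 and -0.03 (Nexn, limma adjusted p = 0.403). Supervillin, which ties actin and myosin to membranes, read 0.09, 0.35 and 0.52 (Svil, limma adjusted p = 0.13), but its 3 probes were spread from -0.16 to 0.32.

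No gene of filament elongation and branching was called by limma, and 2 of the 4 had an unadjusted p under 0.05. Vasp, which lengthens filaments at adhesions, read -0.3, -0.23 and -0.18 (-0.23 ± 0.06, limma adjusted p = 0.15), with its second probe at the same mean. Its relative Enah read 0.07, 0.08 and 0.27 (0.14 ± 0.11, limma adjusted p = 0.4) with the brightest probe. A second Enah probe read 0.56, 0.48 and 0.53 and was called (0.52 ± 0.04, limma adjusted p = 0.0186). The remaining Enah probe read 0.05 (limma adjusted p = 0.771), and the mean of the probes, at 0.24, was not called (limma adjusted p = 0.132). The first 30 bases of the called and the brightest Enah probe show that they are separate sequences, both on the minus strand of chromosome 1.
Enah, called probe, chr1:183742229-183742288: aaacccgtcaggcaagatcaccgtgcattg
Enah, brightest probe, chr1:183740371-183740430: aaatcgcttttcattttgttgctaatgtta
Evl, the member of that family found in blood and nerve cells, read -0.44, 0.08 and 0.06 (limma adjusted p = 0.68). Cortactin, which stabilises branches made by the Arp2/3 complex, read 0.1, 0.31 and 0.46 (Cttn, 0.29 ± 0.18, limma adjusted p = 0.138).

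ERM proteins tie the membrane to cortical actin, and moesin is their main form in endothelium. Neither member measured under its listed name was called by limma, although both had an unadjusted p under 0.05. Msn read -0.29, -0.7 and -0.12 (-0.37 ± 0.3, limma adjusted p = 0.135), and all 3 of its probes lay between -0.37 and -0.3. Rdx read -0.12, -0.71 and -0.46 (-0.43 ± 0.3, limma adjusted p = 0.0936), while its second probe, at -0.77, was called (limma adjusted p = 0.0321). Ezrin, found as Vil2, read -0.62, -0.85 and -0.6, a 1.61-fold fall (Ezr, -0.69 ± 0.14, limma adjusted p = 0.012). Its probe lies on chromosome 17, 22.6 Mb from that of Pim1.

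The actins themselves did not pass. Cytoplasmic beta-actin read 0.13, -0.44 and -0.76 (Actb, -0.36 ± 0.45, limma adjusted p = 0.246), and a probe listed under the same name but placed on chromosome X by the array files read -0.01, -0.55 and -0.61. Gamma-actin read 0.16, -0.05 and 0.13 (Actg1, 0.08 ± 0.11, limma adjusted p = 0.631), so its arrays lay on both sides of 0.

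Of the 8 genes of actins and filament turnover, 2 were called, both lower (25%, near the 20.1% of all genes). Cofilins cut and disassemble filaments, and 1 of the 2 forms measured was called. Cfl2, the form known from muscle, read -0.87, -1.17 and -1.08, a 2.06-fold fall (-1.04 ± 0.15, limma adjusted p = 0.00364), a call that was lost without array 3 (adjusted p = 0.0573). Cfl1, the common form, read -0.2, -0.35 and -0.25 (-0.27 ± 0.08, limma adjusted p = 0.115). Its ratio exceeded that of Cfl2 on each array, by 0.77 ± 0.09. Gelsolin, which severs and caps filaments in the presence of calcium, read -1.29, -0.65 and -0.45, a 1.73-fold fall (Gsn, -0.79 ± 0.44, limma adjusted p = 0.0369), with array 1 lowest. Its call was lost without array 2 or array 3 (adjusted p = 0.147 and 0.103), with median centring (0.22) and without the filter on dim probes (0.0715). Capg, a gelsolin relative that caps but does not sever, read -1.06, 0.08 and -0.45 (limma adjusted p = 0.202). Cap1, which recycles actin monomers, read 0.32, 0.33 and 0.69 and just missed the threshold (0.45 ± 0.21, limma adjusted p = 0.0552). Profilin, which loads monomers for growth, lay at 0.06, -0.1 and 0.06 (Pfn1, limma adjusted p = 0.967).

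**Figure D3:**
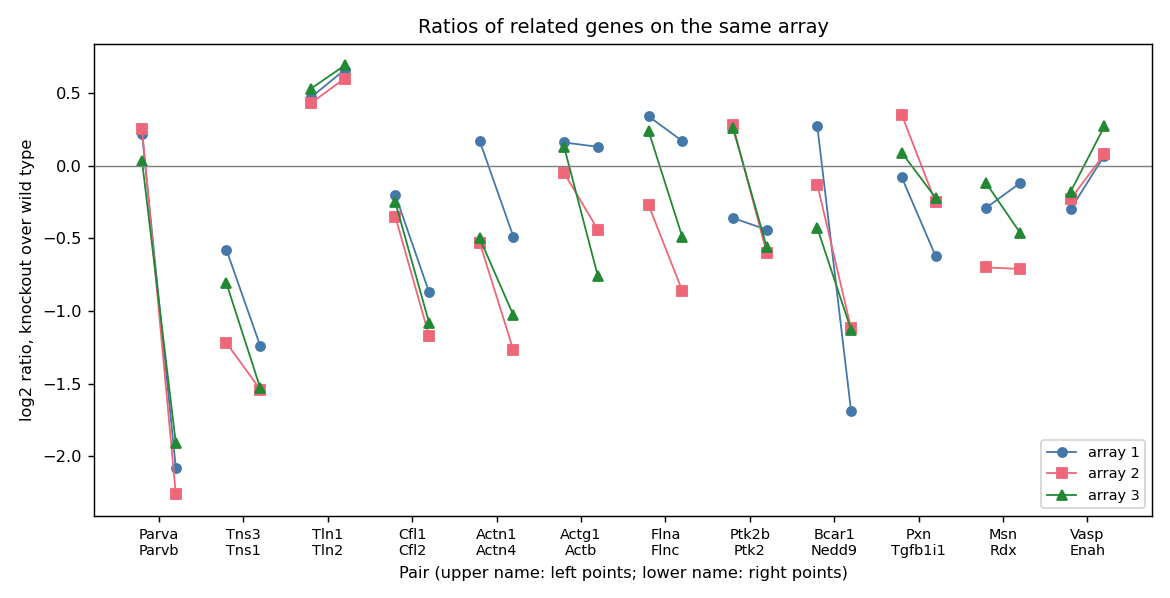
Log2 ratio (knockout over wild type, vertical axis) of 12 pairs of related genes, joined on each of the 3 arrays; the upper name of a pair is the left point and the lower name the right point. Parvb lies below Parva on each array by 1.94 to 2.52, and Cfl2 lies below Cfl1 by 0.67 to 0.83.

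Differences in ratio, not in level, between related genes on the same array are described here and were not tested. An exact sign-flip test on 3 arrays cannot give a p below 0.25. The pairs with the same sign of difference on every array included Parva over Parvb, Cfl1 over Cfl2, Actn1 over Actn4, Bcar1 over Nedd9, Flna over Flnc (0.5 ± 0.29), Tns3 over Tns1 (Tns1 minus Tns3 was -0.57 ± 0.22) and Tln2 over Tln1 (Tln1 minus Tln2 was -0.17 ± 0.02). Msn and Rdx had no such order (0.06 ± 0.26).

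Probes of a gene often differed in size but seldom in sign. Leaving out the Actb probe placed on chromosome X, 25 members had 2 or more tested probes, and in 21 of these all had the same sign. The exceptions were Parva, Ptk2b, Nexn and Svil, none of which was called. Of the 9 called genes with several tested probes, 8 had their largest change at the probe nearest the 3' end of the transcript, and in the same 8 this was also the brightest probe. The exception was Tln1. The second probe of Src, with a mean log2 intensity of 6.61 in the knockout and 6.85 in the wild type, read -0.24 here and -0.68 with the scanner software's ratio.

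**Figure D4:**
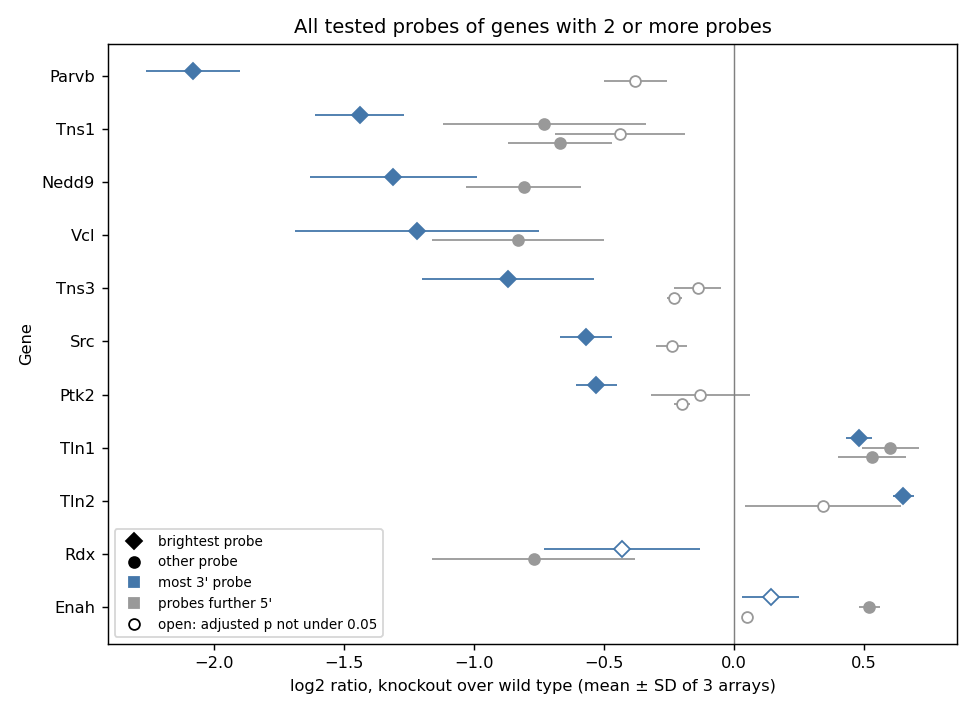
Mean log2 ratio (horizontal axis, bars show the SD over 3 arrays) of every tested probe of the called genes with several probes and of Rdx and Enah; blue marks the probe nearest the 3' end, diamonds the brightest probe and open symbols an adjusted p not under 0.05. All probes of a gene lie on the same side of 0, and the Parvb probes differ most, at -2.08 and -0.38. The latter is a dim probe that read -2.71 with the scanner software's ratio.

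Calls among the members changed most without array 1. Then 6 members were called higher and 16 lower, where 42.3% of all genes were called with arrays 2 and 3. Gained calls were Ilk (0.48), Cap1 (0.51), Svil (0.43) and Cttn (0.39) among the higher, and Flnc (-0.68), Actb (-0.6), Rdx (-0.59), Actn1 (-0.52), Msn (-0.41) and Cfl1 (-0.3) among the lower. Without array 2 limma called no member higher and 4 lower, and without array 3 none higher and 3 lower (3 and 2 members were higher at an unadjusted p under 0.05), where 5.49% and 4.64% of all genes were called. Parvb, Tns1 and Nedd9 were the members called lower with every pair of arrays.

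**Figure D5:**
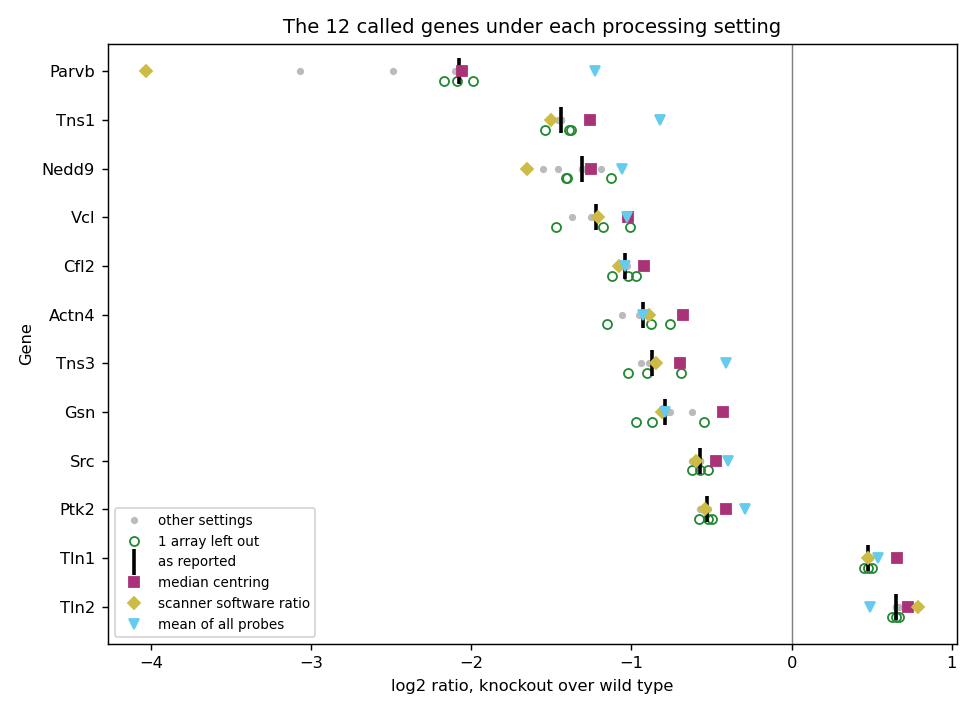
Log2 ratio (knockout over wild type, horizontal axis) of the 12 called genes under each processing setting; the black bar is the reported value and green circles leave out 1 array. No gene changes sign, Parvb ranges from -4.03 to -1.23, and Ptk2 comes closest to 0, at -0.29 with the mean of its probes.

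The wider adhesion and actin machinery was taken from a list of 114 other genes. That list was written with earlier results of these data known, so its counts are no independent support for those of the members. It held more lower than higher calls, as did all genes (11.4% lower and 8.66% higher). Of 105 tested, 8 were called higher and 24 lower (30.5%, against 20.1% of all genes), with a median of -0.18. With median centring, 8 were called higher and 11 lower, where 13.8% of all genes were called. Of 14 myosins and tropomyosins, 6 were called (42.9%), all lower. The regulatory myosin light chain Myl9 read -1.54, -2.11 and -2.67, a 4.3-fold fall (limma adjusted p = 0.00394), and myosin light chain kinase, Mylk, which phosphorylates it, read -1.19, -1.19 and -1.34, a 2.36-fold fall (limma adjusted p = 0.00157). The formin Diaph3, which nucleates unbranched filaments, was 2.35-fold lower (-1.23 ± 0.23, limma adjusted p = 0.00336).

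Of 19 other adhesion adaptors tested, 3 fell and 1 rose (21.1% called, near the 20.1% of all genes). Sorbs2, an adaptor that binds vinculin, was not well above background with knockout RNA and read 3.92-fold lower (limma adjusted p = 0.00679). Its log2 ratio was -1.97 here and -5.81 with the scanner software's ratio. Sorbs3, or vinexin, named after its values were seen, read -1.38, -0.8 and -0.69 (-0.96 ± 0.37, limma adjusted p = 0.0166). The gene that rose was Fblim1, or migfilin, a filamin-binding adaptor, also named after its values were seen (0.69, limma adjusted p = 0.00843). Of 14 bundling and cortical proteins, 3 rose and 4 fell (50%). Fascin, which packs filaments into the bundles of filopodia, read 2.09, 1.07 and 1.09, a 2.67-fold rise (Fscn1, 1.42 ± 0.58, limma adjusted p = 0.0144). Synpo2, an actin bundler of muscle, was not well above background with knockout RNA and read 2.66-fold lower (limma adjusted p = 0.00599). Its log2 ratio was -1.41 here and -3.42 with the scanner software's ratio. Of 18 genes of the Arp2/3 complex and its activators, 2 were called, both lower (11.1%, below the share of all genes). Of 15 capping, severing and monomer-binding genes, 3 rose and 2 fell (33.3%). In the axis of serum response factor and its cofactors, 1 of 4 was called (25%). Myocardin, Myocd, was not well above background with knockout RNA and read 2.22-fold lower (limma adjusted p = 0.00695). Its log2 ratio was -1.15 here and -4.38 with the scanner software's ratio.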

How the data were processed

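The deposited files held the pixel intensity of 45018 spots per array and of the background around each, for both dyes, as the authors' scanner software wrote them. The software was Agilent Feature Extraction 9.5.3.1 (submitters' processing notes). Its log10 ratio, red over green, stood beside them per the file headers and was identical to the deposited value table on every array (largest difference 0). From the mean intensities, background was corrected with normexp (offset 50) and ratios were normalised by loess within arrays, with control and outlier-flagged spots at weight 0. Tests covered 25192 probes, those flagged as well above background for at least 1 dye on 2 or more arrays. Using limma 3.58.1 (R 4.3.3), the mean log2 ratio was set against 0 with lmFit and eBayes, adjusted by Benjamini-Hochberg over all tested probes. For each gene the brightest probe tested was used, except that a brighter Actb probe, placed on chromosome X by the array files and not on the gene's chromosome, was left out. Bounds ("at least") rest on single-channel intensities after loess and Aquantile and are open to dye bias. The dim channel was set to its measured signal or to the lowest signal well above background, whichever was higher. For Xist, Sorbs2, Synpo2, Myocd and the dim Tns3 probe the bound equalled the measured fold, so the fold printed is itself the lower bound. The scanner software's ratios of all these probes were further from 0. Genes were named through RefSeq tables (GRCm38.p6); probe positions are those of the array files (mm8), and exon or UTR annotation of that build was not used here. All arrays came from 1 slide and 1 scan. Members and lists were chosen with earlier results of these data known. All members are named; other pathway genes were named where called with a log2 ratio of at least 1 in size, and markers where called with one of at least 2 or undetected. Some results of the wider list are not reported here. The steps were tested on simulated data.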

Additional observations from a re-analysis of the deposited data

How the results depend on the processing

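No called member changed sign under any of the 16 alternatives. With the stricter threshold, the changed filters and the intensity trend the ratios stay the same, so only calls could change there. The scanner software's ratio and the deposited value table hold the same values and count as separate alternatives. Of 575 values of single members under them, 499 stayed on the same side of 0 and of the threshold, 37 lost and 20 gained a call, and 19 changed sign without a call on either side. Parvb has no value where both channels had to be above background on all arrays. Against 2 members called higher, 10 lower, a median of -0.25, other pathway genes at 8 higher and 24 lower, and 2712 genes called in all, the values that moved were these. Members called higher numbered 1 with a normexp offset of 0, with the scanner software's ratio and with the deposited value table, 6 with array quality weights (with 15 members and 34 other pathway genes lower) and 0 at an adjusted p under 0.01 (limma, 6 at an unadjusted p under 0.05). Members called lower numbered 5 with median centring and 4 at an adjusted p under 0.01. The median was -0.04 with median centring and -0.17 with the mean of all probes. Other pathway genes called lower numbered 11 with median centring and 8 at an adjusted p under 0.01, and those called higher 13 with array weights and 3 at an adjusted p under 0.01. All genes called numbered 4420 with array weights and 965 at an adjusted p under 0.01. Leaving out each replicate gave 0 to 6 members higher, 3 to 16 lower, medians of -0.22 to -0.18, other pathway genes at 0 to 14 higher (limma, 8 to 14 at an unadjusted p under 0.05) and 5 to 39 lower, and 620 to 5571 genes called; the highest counts were without replicate 1. Median centring moved the median of all genes from -0.02 to 0.08 and the share of calls that were higher from 43.1% to 55.6%. The cause was not tested. No paired analysis was possible because there is 1 group of arrays, in which each ratio already pairs the genotypes. Ratios of probes near background, above all Parvb, are limited by signal over background.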
